A study of Mus musculus with 2 samples.

Results

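The mitochondrial respiratory chain passes electrons from NADH and succinate through complexes I to IV to oxygen and uses the resulting proton gradient to make ATP at complex V. Its subunits come from both genomes of the cell: most are encoded in the nucleus, made in the cytosol and imported, while a small core set is encoded and transcribed within the mitochondrion. In the epidermis, dividing basal keratinocytes and the layers above them differ in their mitochondrial activity, and the mitochondrial share of a cell's transcripts is also widely used as a sign of a stressed or damaged cell.

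The respiratory chain genes were taken as all genes of the count table whose symbol starts with Nduf, Uqcr, Atp5, Sdh, Cox4, Cox5, Cox6, Cox7, Cox8, mt-Nd, mt-Co, mt-Cytb or mt-Atp. The rule found 110 of 31053 gene identifiers, of which 97 are nuclear-encoded and 13 are mitochondrial-encoded. No measured value entered the rule. The nuclear-encoded members comprised 44 of complex I (8 of them assembly factors), 8 of complex II (4 assembly factors), 8 of complex III, 20 of complex IV and 17 of complex V. Ndufa4 and Ndufa4l2 were counted under complex IV, where NDUFA4 is now placed, and Cox7a2l, which helps to join complexes III and IV, was counted there too. Atp5o stood under 2 overlapping identifiers on chromosome 16, so that the table held 96 nuclear symbols. In each library 109 members had at least 1 UMI (unique molecular identifier, 1 captured transcript), and 108 had one in both.

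The data were 2 droplet single-cell RNA libraries of back skin, 1 from Chrna5 KO mice and 1 from WT mice. Chrna5 is the gene of a subunit, alpha 5, of the ion channels that acetylcholine and nicotine open. Both groups were female mice aged 6 to 8 weeks that had 62.5 mg of cream with 5% imiquimod, which activates Toll-like receptors and inflames the skin much as psoriasis does, spread on the shaved back on 6 days, with the skin taken on day 7. The labels give the strain as C57BL/6 and elsewhere as C57BL/6N, to which the Chrna5-/- line was backcrossed, and as C57BL/6J. They give 5 mice in each experimental group and do not say how many entered a library, nor which part of Chrna5 was deleted. The skin was digested with collagenase and cells that excluded a dead-cell dye were sorted. Mice given only the cream base are not analysed here. With 1 library per genotype no test was possible, so each difference below is a difference between these 2 libraries, and every interval is a 95% interval of counting error only.

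The KO library held 10886 barcodes with 123839924 UMIs (median 6005.5 per barcode) and the WT library 14557 barcodes with 147260653 UMIs (median 4238). Barcodes under 1000 UMIs made up 7.89% of the KO and 17.0% of the WT library, and 49 barcodes occurred in both. Chrna5 itself had 6 UMIs in the KO and 12 in the WT library, too few to check the labels. Cells were gated on marker genes, none of them a respiratory chain gene, with limits set after the counts were seen. The gates took 3859 KO and 7994 WT keratinocyte-gated cells (Krt14, Krt5 and 10 further markers), 2374 KO and 2066 WT fibroblast-gated cells (Col1a1, Dcn and 8 further markers), and 747 KO and 861 WT monocyte- and macrophage-gated cells, called macrophage-gated below (Lyz2, C1qa and 10 further markers). All markers of each list were detected in its own cells, but the gates used these same markers, so this is no check of cell type. All 12 keratinocyte markers were also detected in fibroblast- and macrophage-gated cells of both libraries. Within 1.5 times the limit lay 250 KO and 177 WT keratinocyte-gated, 226 KO and 80 WT fibroblast-gated and 28 KO and 49 WT macrophage-gated cells. Smaller gates (440 KO and 175 WT T cells, 151 KO and 67 WT vascular endothelial cells, 69 KO and 67 WT melanocytes) are described with the same measures, on fewer cells.

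Because the results concern the balance of 2 genomes, 4 stretches of sequence are shown first. The mitochondrial genes lie close together, and mt-Atp8 and mt-Atp6, subunits of complex V carried on one transcript, overlap by 43 bases on the plus strand at chrM:7927-7969 (GRCm38, the build mm10), where reads of the 2 genes cannot be told apart. The capitals mark the start codon of mt-Atp6.
mt-Atp8 and mt-Atp6 overlap: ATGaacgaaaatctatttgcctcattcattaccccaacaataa
The nuclear members have no such shared unit, but some share a site in their promoters. Of the 96 nuclear symbols 96 matched RefSeq and 80 had a promoter window there (250 bases before to 50 after the gene start, GRCm38.p6). The letters GCATGCGC, a core of the binding site of NRF1, a nuclear factor known to act on respiratory genes, occurred on either strand in 12 of the 80 windows (15%) against 824 of all 27025 genes with a window (3.05%). The letters CCGGAAG, the core bound by ETS factors such as GABP, do not overlap with the first motif in their letters, were likewise searched on both strands and occurred in 21 of 80 (26.2%) against 2683 of 27025 (9.93%). The 12 genes with the first motif were Ndufa6, Ndufa8, Ndufa11, Ndufaf4, Ndufaf5, Sdhb, Uqcr11, Uqcrc1, Cox6a1, Atp5g2, Atp5k and Atp5l. The windows of 3 of them are shown because these genes lie at opposite ends of the keratinocyte values described below; they are printed with the first motif, read on either strand, in capitals. Atp5k lies at chr5:108434350-108434649, minus strand, with the motif from -50 of the gene start. Uqcr11 lies at chr10:80406772-80407071, minus strand, with the motif from -4. Ndufaf4 lies at chr4:24897833-24898132, plus strand, with the first motif from -113.
Atp5k promoter: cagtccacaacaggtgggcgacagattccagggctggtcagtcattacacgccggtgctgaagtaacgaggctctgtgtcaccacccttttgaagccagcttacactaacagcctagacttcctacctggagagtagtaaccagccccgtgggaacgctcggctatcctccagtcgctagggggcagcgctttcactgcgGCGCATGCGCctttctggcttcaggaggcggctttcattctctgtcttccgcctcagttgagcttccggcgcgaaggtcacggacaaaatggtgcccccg
Uqcr11 promoter: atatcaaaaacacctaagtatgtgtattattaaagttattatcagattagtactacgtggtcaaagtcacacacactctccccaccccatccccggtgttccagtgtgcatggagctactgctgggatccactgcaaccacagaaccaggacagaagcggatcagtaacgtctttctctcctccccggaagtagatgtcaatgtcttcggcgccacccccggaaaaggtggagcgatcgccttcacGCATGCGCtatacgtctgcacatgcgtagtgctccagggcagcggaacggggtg
Ndufaf4 promoter: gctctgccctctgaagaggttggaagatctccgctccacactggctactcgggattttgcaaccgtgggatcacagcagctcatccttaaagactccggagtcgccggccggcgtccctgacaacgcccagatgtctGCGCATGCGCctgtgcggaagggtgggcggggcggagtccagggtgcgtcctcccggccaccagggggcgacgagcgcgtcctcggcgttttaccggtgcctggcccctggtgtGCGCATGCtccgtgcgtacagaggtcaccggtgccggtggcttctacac

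In the KO library the nuclear-encoded members took a smaller share of UMIs than in the WT library, and the mitochondrial-encoded members a larger one. Keratinocyte-gated cells gave 1.97% of their UMIs to nuclear-encoded members in KO and 2.65% in WT, and 3.44% to mitochondrial-encoded members in KO and 2.72% in WT. The quotient of nuclear over mitochondrial UMIs, which does not depend on how a library is scaled, was 0.572 in KO and 0.973 in WT, a ratio of 0.588 (0.587 to 0.590). The shares were nearly equal in WT keratinocyte-gated cells, whereas mitochondrial transcripts were the larger share in KO.

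Fibroblast-gated cells held the smallest shares of the gated types in both libraries. Their nuclear share was 0.843% in KO and 1.01% in WT, their mitochondrial share 1.35% in KO and 1.16% in WT, and their quotient 0.624 in KO and 0.865 in WT (ratio 0.721, 0.714 to 0.728). In the summed UMIs of macrophage-gated cells the difference lay almost wholly on the nuclear side, whereas medians over single cells, given below, differed on both sides. The nuclear share was 1.48% in KO and 1.95% in WT, the mitochondrial share 2.49% in KO and 2.38% in WT, and the quotient 0.593 in KO and 0.820 in WT (ratio 0.723, 0.715 to 0.732).

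The same direction was seen in the smaller gates. The quotient was 0.497 in KO and 0.748 in WT T cell-gated cells, 0.491 in KO and 0.848 in WT vascular endothelial-gated cells, and 0.428 in KO and 0.586 in WT melanocyte-gated cells. In T cell-gated cells it was the mitochondrial share that differed most, at 3.20% in KO and 2.27% in WT, beside a nuclear share of 1.59% in KO and 1.70% in WT. Of 11 gated types, 5 of them with fewer than 50 cells in at least 1 library, 10 had a lower quotient in KO. The exception was the lymphatic endothelial gate, with 0.709 in 29 KO cells and 0.657 in 23 WT cells, where the interval of the ratio ran from 0.968 to 1.20. Barcodes in no gate gave 0.400 in KO and 0.637 in WT, so the difference was not limited to gated cells. These barcodes were unlike in the 2 libraries. Their median level of keratinocyte markers was 16.7 per 10000 UMIs in KO and 55.0 in WT. Over 10% mitochondrial UMIs were found in 15.8% of them in KO and 7.41% in WT. The part of these features in their quotient was not tested.

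**Figure D1:**
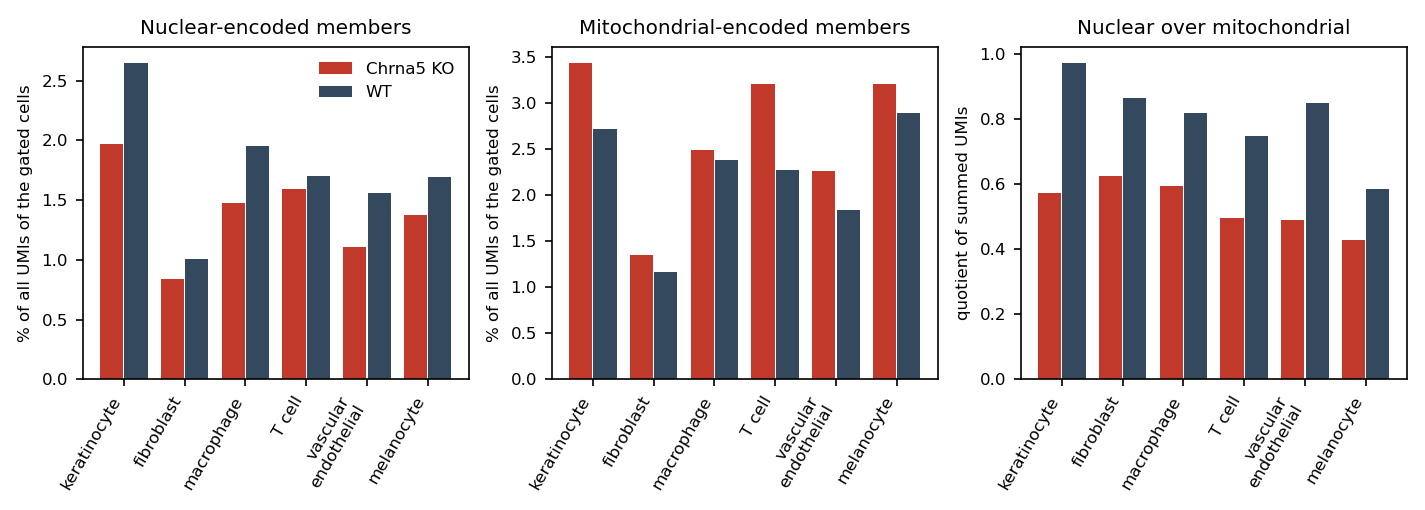
Share of all UMIs of the gated cells (%) from nuclear-encoded members (left) and mitochondrial-encoded members (middle), and the quotient of their summed UMIs (right), in 6 gated cell types; red bars are the Chrna5 KO library and dark bars the WT library, 1 library each. The quotient is lower in KO in all 6 types, from 0.428 against 0.586 in melanocyte-gated to 0.624 against 0.865 in fibroblast-gated cells.

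Depth differed between the libraries and was set beside the result. The median keratinocyte-gated cell had 14703 UMIs in KO and 3679.5 in WT, whereas fibroblast-gated cells had 6693 in KO and 7586.5 in WT and macrophage-gated cells 6601 in KO and 8501 in WT. Within bands of depth the quotient was lower in KO in 10 of 10 bands over the 3 types. Among keratinocyte-gated cells with 8000 to 32000 UMIs (1714 KO and 1694 WT cells) it was 0.576 in KO and 0.863 in WT, and among those with 500 to 2000 UMIs (530 KO and 2585 WT cells) 0.197 in KO and 0.467 in WT. Fibroblast-gated cells of 8000 to 32000 UMIs had 0.693 in KO and 0.898 in WT. Macrophage-gated cells of the same band had 0.678 in KO and 0.912 in WT. The shares behind the quotient did not keep their direction in every band. The mitochondrial share of macrophage-gated cells was lower in KO at 500 to 2000 UMIs (5.18% in KO and 5.45% in WT) and at 2000 to 8000 UMIs (2.62% in KO and 2.91% in WT). The nuclear share of fibroblast-gated cells was larger in KO at 500 to 2000 UMIs, with 1.38% in 58 KO and 1.21% in 44 WT cells.

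Medians over single cells differed in the same direction as the sums, in which deep cells weigh more. The median keratinocyte-gated cell gave 1.52% to nuclear-encoded members in KO and 1.94% in WT, with interquartile ranges of 1.06 to 2.07% in KO and 1.39 to 2.58% in WT. Its median mitochondrial share was 3.09% in KO and 2.23% in WT. The median nuclear share was 0.804% in KO and 0.979% in WT fibroblast-gated cells, and 1.36% in KO and 1.88% in WT macrophage-gated cells. The median mitochondrial share was 1.24% in KO and 1.06% in WT fibroblast-gated cells, and 2.36% in KO and 2.05% in WT macrophage-gated cells. In macrophage-gated cells the medians thus lay further apart than the summed shares, which were 2.49% in KO and 2.38% in WT. The distributions of the 2 libraries overlapped in all 3 types. Cells with over 10% mitochondrial UMIs made up 5.08% of KO and 4.63% of WT keratinocyte-gated cells (196 KO and 370 WT), 0.421% of KO and 0.145% of WT fibroblast-gated cells (10 KO and 3 WT), and 1.74% of KO and 3.83% of WT macrophage-gated cells (13 KO and 33 WT).

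**Figure D2:**
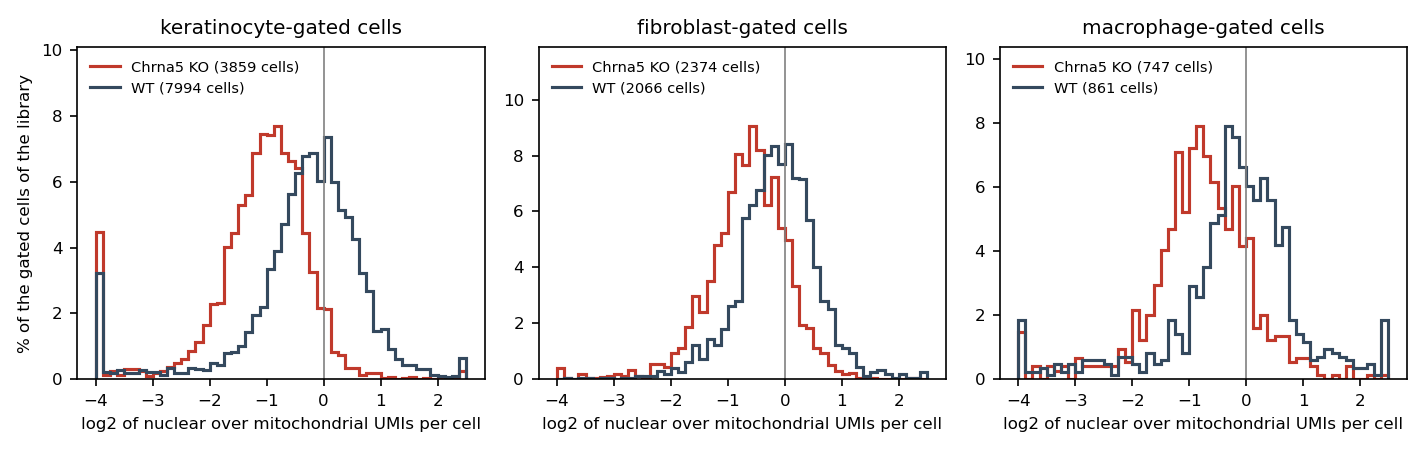
Distribution over single cells of the log2 quotient of nuclear- over mitochondrial-encoded UMIs (x axis; values beyond the ends are drawn in the end bins, and the grey line marks equal counts), as % of the gated cells of each library; red is Chrna5 KO, dark is WT. The KO distribution lies left of the WT distribution in keratinocyte-, fibroblast- and macrophage-gated cells, with wide overlap.

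Other features of the libraries differed as well in the compared types. Genes of cytosolic ribosomal proteins took 26.1% of UMIs in KO and 28.3% in WT keratinocyte-gated cells, 13.5% in KO and 16.4% in WT fibroblast-gated cells, and 18.8% in KO and 21.6% in WT macrophage-gated cells. Keratinocyte transcripts in the other gates differed too: the median summed level of the 12 keratinocyte markers was 6.54 per 10000 UMIs in KO and 12.4 in WT fibroblast-gated cells, and 5.97 in KO and 11.2 in WT macrophage-gated cells. Gm42418, a gene that overlaps ribosomal RNA sequence, took 0.430% of UMIs in KO and 0.933% in WT keratinocyte-gated cells, 1.30% in KO and 2.62% in WT fibroblast-gated cells, and 1.15% in KO and 1.61% in WT macrophage-gated cells. The summed level of 5 erythroid markers was 17.9 CPM in KO and 209.5 CPM in WT keratinocyte-gated cells, 9.25 CPM in KO and 450.8 CPM in WT fibroblast-gated cells, and 9.0 CPM in KO and 37.7 CPM in WT macrophage-gated cells; all 5 were detected except in KO macrophage-gated cells, where 4 were. In vascular endothelial-gated cells the erythroid sum went the other way, with 1051 CPM in KO and 104 CPM in WT. So it did in 83 KO and 32 WT pericyte- and smooth muscle-gated cells, with 412 CPM in KO and 29.7 CPM in WT. The quotient was lower in KO in both of these gates. The part of these features in the result was not tested.

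Gene by gene, members are given as CPM, the UMIs of a gene per 1000000 UMIs of the gated cells, and counted as lower or higher in KO where CPM differed by 1.5-fold or more among genes with at least 20 UMIs in both libraries together. Of the 97 nuclear-encoded members 92 had that many UMIs in keratinocyte-gated cells, and 20 of the 92 were lower and 3 higher in KO. Over all 15644 genes measured there, 12.1% were lower and 15% higher. The median log2 ratio of KO over WT was -0.43 over the 92 nuclear-encoded members and 0.05 over all genes. In fibroblast-gated cells 5 of 90 members were lower and 1 was higher, against 8.72% of all genes lower and 16% higher, so the share of members called lower was below that of all genes, and the median log2 ratio was -0.22 against 0.09 over all genes. Macrophage-gated cells had 20 of 89 members lower and 0 higher, against 11.6% of all genes lower and 14% higher, with a median of -0.45 against 0.05.

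Most members thus differed by less than 1.5-fold but on the same side. At a smaller limit, a ratio of 5 to 4, 66 of 92 members were lower and 3 higher in keratinocyte-gated cells (22.2% and 27.8% of all genes), 32 of 90 lower and 1 higher in fibroblast-gated cells (17.6% and 29.4%), and 66 of 89 lower and 1 higher in macrophage-gated cells (22.6% and 29.2%). Of the 92 measured in keratinocyte-gated cells 85 had a ratio below 1, as had 80 of 90 in fibroblast-gated and 82 of 89 in macrophage-gated cells. The median log2 ratio over all genes lay slightly above equality in these types, at 0.05, 0.09 and 0.05. Nuclear-encoded structural subunits were the most uniform, with 73 of 74 below 1 in keratinocyte-gated cells (the exception was Sdhb). The members lower in both keratinocyte- and macrophage-gated cells numbered 8, which is 8 of 20 in each list: the complex I subunits Ndufa3, Ndufa8, Ndufc1, Ndufc2 and Ndufs7, Uqcr10 of complex III, Cox7b of complex IV and Atp5g1 of complex V. Ndufa3 was lower in fibroblast-gated cells as well. The matching overlap over all genes was not counted, and the types come from the same libraries. The overlap is therefore a list of genes and cannot be read as particular to the members.

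**Figure D3:**
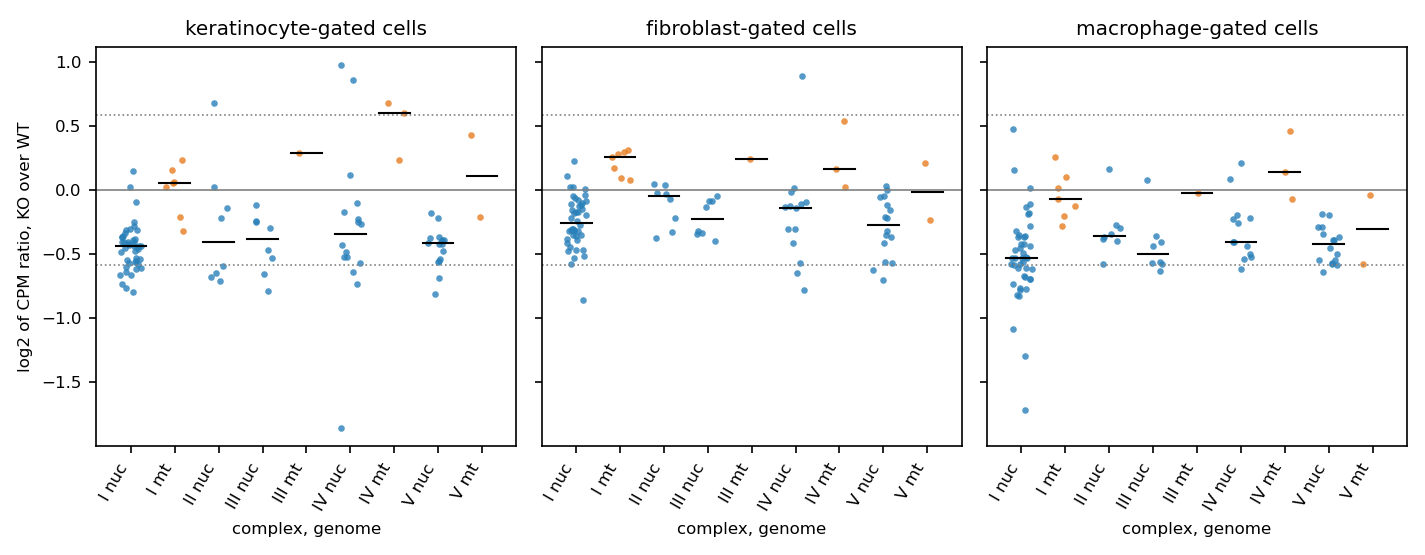
log2 ratio of CPM, KO over WT, of each respiratory chain gene with at least 20 UMIs (points), by complex (I to V) and by genome (nuc, nuclear-encoded, blue; mt, mitochondrial-encoded, orange), in 3 gated cell types; black bars are medians, the dotted lines mark 1.5-fold and horizontal scatter has no meaning. Nuclear-encoded medians lie below 0 in every complex and type, and the mitochondrial-encoded medians lie above them in each complex.

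Complex I takes electrons from NADH and is the largest of the chain. Its 44 nuclear-encoded members had a median log2 ratio of -0.44 in keratinocyte-gated, -0.26 in fibroblast-gated and -0.53 in macrophage-gated cells, and 9, 1 and 17 of them were lower in KO in these types, beside 12.1%, 8.72% and 11.6% of all genes. The share in fibroblast-gated cells was thus below that of all genes. Ndufb7, an accessory subunit, had the lowest ratio in keratinocyte-gated cells, at 94.2 CPM in KO and 163 CPM in WT (ratio 0.577, 0.561 to 0.593). The subunit Ndufa3 was at 69.5 CPM in KO and 105 CPM in WT keratinocyte-gated cells, and at 31.3 CPM in KO and 56.7 CPM in WT fibroblast-gated cells, where its ratio of 0.552 (0.494 to 0.615) was the lowest of the complex. Ndufb9, the nuclear-encoded member of the complex with the highest CPM in keratinocyte-gated cells, had 328 CPM in KO and 424 CPM in WT.

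The nuclear-encoded subunits of the catalytic core of complex I showed the same side. Ndufv1, which binds NADH, had 73.4 CPM in KO and 108 CPM in WT keratinocyte-gated cells, and Ndufs7, which carries an iron-sulphur cluster near the quinone site, had 83.1 CPM in KO and 129 CPM in WT. Assembly factors build a complex and are not part of it. The 12 of complexes I and II had median log2 ratios of -0.33 in keratinocyte-gated, -0.07 in fibroblast-gated and -0.41 in macrophage-gated cells. The medians for 74 nuclear-encoded structural subunits were -0.46, -0.30 and -0.48 in the same order of types. Ndufaf4 had 53.9 CPM in KO and 48.5 CPM in WT keratinocyte-gated cells (ratio 1.11, 1.07 to 1.16). This was the highest ratio among the nuclear-encoded members of complex I. In macrophage-gated cells Ndufaf4 had 17.8 CPM in KO and 16.0 CPM in WT, and Ndufaf7, which methylates a core subunit, had 2.54 CPM in KO and 6.22 CPM in WT (ratio 0.409, 0.203 to 0.768).

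Complex II, or succinate dehydrogenase, is the only complex without a mitochondrial-encoded subunit. Its catalytic subunit Sdha had 27.9 CPM in KO and 43.7 CPM in WT keratinocyte-gated cells, and the membrane anchor Sdhd had 31.7 CPM in KO and 51.9 CPM in WT (ratio 0.611, 0.582 to 0.641). Sdhb, the iron-sulphur subunit, differed little, with 86.6 CPM in KO and 85.3 CPM in WT. The assembly factor Sdhaf1, which helps to insert the iron-sulphur clusters of Sdhb, was higher in KO keratinocyte-gated cells, at 17.4 CPM against 10.9 CPM in WT (ratio 1.60, 1.48 to 1.73). Its ratio was 1.03 in fibroblast-gated and 0.670 in macrophage-gated cells, where the interval of 0.433 to 1.02 takes in equality. Sdha in macrophage-gated cells had 46.8 CPM in KO and 41.8 CPM in WT, with an interval of the ratio of 0.941 to 1.33.

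Complex III passes electrons from ubiquinol to cytochrome c. Uqcr11, a small subunit, had 322 CPM in KO and 556 CPM in WT keratinocyte-gated cells (ratio 0.579, 0.570 to 0.587), and Uqcr10 had 324 CPM in KO and 510 CPM in WT. Uqcrh, the hinge subunit that contacts cytochrome c1, had the highest ratio of the nuclear-encoded members of the complex in all 3 types. It had 562 CPM in KO and 609 CPM in WT keratinocyte-gated cells. In macrophage-gated cells it had 568 CPM in KO and 536 CPM in WT. Uqcrq, the lowest of the complex in fibroblast-gated cells, had 195 CPM in KO and 258 CPM in WT. No member of complex III was called lower in fibroblast-gated cells.

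Complex IV, or cytochrome c oxidase, reduces oxygen. Cox4i1, the nuclear-encoded member of the complex with the highest CPM, differed less than most. It had 1044 CPM in KO and 1177 CPM in WT keratinocyte-gated cells (ratio 0.887, 0.880 to 0.895). In macrophage-gated cells it had 997 CPM in KO and 1140 CPM in WT. Ndufa4 had 638 CPM in KO and 1058 CPM in WT keratinocyte-gated cells (ratio 0.602), against ratios of 0.752 in fibroblast-gated and 0.709 in macrophage-gated cells. Cox7b was lower in keratinocyte-gated cells, at 409 CPM in KO and 635 CPM in WT, and in macrophage-gated cells, at 186 CPM in KO and 284 CPM in WT. The 2 structural subunits lower in fibroblast-gated cells were Cox7c, with 235 CPM in KO and 404 CPM in WT (ratio 0.584), and Cox6c, with 413 CPM in KO and 647 CPM in WT (ratio 0.638). The joining factor Cox7a2l went the other way in 2 types, with 307 CPM in KO and 282 CPM in WT keratinocyte-gated and 340 CPM in KO and 294 CPM in WT macrophage-gated cells.

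Complex V, the ATP synthase, had all 16 measured nuclear-encoded members below a ratio of 1 in keratinocyte-gated and in macrophage-gated cells. Atp5k had 200 CPM in KO and 351 CPM in WT keratinocyte-gated cells (ratio 0.569, 0.559 to 0.580), the lowest of the complex. The promoter windows of Atp5k, Uqcr11 and Ndufaf4, printed above, all hold the NRF1 motif and were picked by their ratios, with Ndufaf4 above 1 and the others below. The letters CCGGAAG, on either strand, occur in the windows of Atp5k and Uqcr11 and not in that of Ndufaf4. Sdhb, whose window holds both motifs, had a ratio just above 1. Any part of either motif in these ratios was not tested. Atp5g1, which encodes a copy of the membrane ring subunit c, was lower in keratinocyte-gated cells, at 284 CPM in KO and 457 CPM in WT, and in macrophage-gated cells, at 178 CPM in KO and 277 CPM in WT. The catalytic subunit Atp5b differed by less, with 489 CPM in KO and 644 CPM in WT keratinocyte-gated and 245 CPM in KO and 254 CPM in WT fibroblast-gated cells. Atp5a1 in fibroblast-gated cells had 219 CPM in KO and 214 CPM in WT, with an interval of the ratio of 0.977 to 1.07.

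The mitochondrial-encoded members did not share these differences. Their median log2 ratio was 0.15 in keratinocyte-gated, 0.21 in fibroblast-gated and -0.04 in macrophage-gated cells. In keratinocyte-gated cells 2 of the 13 were higher, a share close to the 15% of all genes higher there, and both were core subunits of complex IV: mt-Co1, at 5592 CPM in KO and 3680 CPM in WT (ratio 1.52, 1.51 to 1.53), and mt-Co3, at 4116 CPM in KO and 2568 CPM in WT (ratio 1.60, 1.59 to 1.61). No mitochondrial-encoded member was called in fibroblast- or macrophage-gated cells. Thus within complex IV of keratinocyte-gated cells the mitochondrial-encoded UMIs were 1.40 times and the nuclear-encoded UMIs 0.757 times as high on the CPM scale in KO as in WT. In complex III, mt-Cytb, its one mitochondrial-encoded subunit, had 4012 CPM in KO and 3292 CPM in WT keratinocyte-gated cells.

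The complex I genes mt-Nd1 to mt-Nd6 spread to both sides. In keratinocyte-gated cells mt-Nd2 had 1434 CPM in KO and 1657 CPM in WT and mt-Nd3 had 358 CPM in KO and 447 CPM in WT, while mt-Nd4 had 2707 CPM in KO and 2303 CPM in WT and mt-Nd5 had 623 CPM in KO and 560 CPM in WT. The ratios of mt-Nd1 (1.04) and mt-Nd4l (1.01) lay close to equality. For mt-Nd6, the one member read from the other strand of the mitochondrial genome, 17.9 CPM in KO and 17.1 CPM in WT gave an interval of 0.973 to 1.12. An overlap of 7 bases on the same strand limits how far reads of mt-Nd4l and mt-Nd4 can be told apart.

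The make-up of the mitochondrial transcripts themselves also differed between the libraries, for mt-Co3 and mt-Atp8 in the same direction in every gated type. As a share of the 13 genes' UMIs, mt-Co3 was 12.0% in KO and 9.43% in WT keratinocyte-gated cells, 14.1% in KO and 11.3% in WT fibroblast-gated cells, and 14.7% in KO and 11.1% in WT macrophage-gated cells. The share of mt-Atp8 was 0.422% in KO and 0.615% in WT keratinocyte-gated cells, 0.520% in KO and 0.710% in WT fibroblast-gated cells, and 0.370% in KO and 0.577% in WT macrophage-gated cells. In all 6 types mt-Co3 had the highest quotient of shares, KO over WT, of the 12 genes other than mt-Nd6, and mt-Atp8 had the lowest in 5 of 6. The exception was the keratinocyte gate, in which mt-Nd3 was lowest (1.04% in KO and 1.64% in WT). Over all 11 gated types the share of mt-Co3 was higher and that of mt-Atp8 lower in KO. The neighbour of both, mt-Atp6, was equal in fibroblast-gated cells, with 20.5% in KO and 20.5% in WT. Its share was higher in KO in keratinocyte-gated cells (22.6% in KO and 21.2% in WT). In macrophage-gated cells it was lower (19.5% in KO and 21.0% in WT). Other genes differed between types: the quotient of shares of mt-Co1 was 1.20 in keratinocyte-gated and 0.964 in fibroblast-gated cells, and that of mt-Nd1 was 0.823 in keratinocyte-gated and 1.03 in macrophage-gated cells. With 1 library per genotype, a difference of genotype and one of library preparation cannot be told apart.

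**Figure D4:**
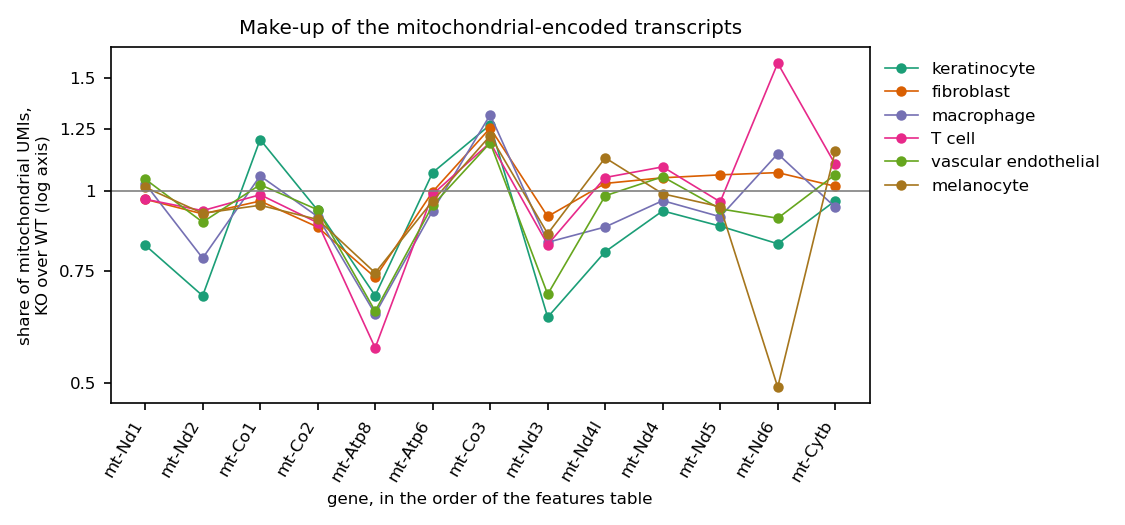
Share of each mitochondrial-encoded gene in the UMIs of all 13, as the quotient of KO over WT (log axis), with genes in the order of the features table and 1 line for each of 6 gated cell types. mt-Co3 lies above 1 (1.19 to 1.32) and mt-Atp8 below 1 (0.568 to 0.745) in all 6; mt-Nd6 rests on few UMIs.

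Set complex by complex, the quotient of nuclear over mitochondrial UMIs was lower in KO in each of the 24 pairs of a complex (I, III, IV and V) and a type, with ratios of 0.522 to 0.800. In keratinocyte-gated cells it was 0.617 in KO and 0.874 in WT for complex I, 0.585 in KO and 0.966 in WT for complex III, 0.458 in KO and 0.849 in WT for complex IV, and 0.704 in KO and 1.28 in WT for complex V. Macrophage-gated cells had 0.871 in KO and 1.20 in WT for complex I and 0.368 in KO and 0.515 in WT for complex IV.

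Keratinocyte-gated cells are not uniform, and were split by Krt1 and Krt10, keratins of the layers above the basal one, at 20 UMIs per 10000, a split chosen after the values were seen. Among 386 KO and 941 WT cells above the limit, nuclear-encoded members took 2.42% of UMIs in KO and 2.67% in WT, and their median log2 ratio was -0.070. Among 3473 KO and 7053 WT cells below it they took 1.90% in KO and 2.65% in WT, with a median of -0.50. The quotient was lower in KO in both, at 0.737 in KO and 1.15 in WT above the limit and at 0.549 in KO and 0.949 in WT below it. Cells high in these keratins therefore differed mainly in their mitochondrial share, 3.28% in KO and 2.32% in WT.

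Several complex IV subunits have a second form used in particular tissues or under low oxygen. Cox4i2, the form of subunit IV found in lung and in oxygen-sensing cells, was concentrated in pericyte- and smooth muscle-gated cells in both libraries, with 298 CPM in 83 KO cells and 111 CPM in 32 WT cells (136 KO and 30 WT UMIs), values given here although the WT cell count lies under the minimum of 50. Keratinocyte-gated cells had 0.471 CPM in KO and 0.260 CPM in WT. Vascular endothelial-gated cells had 23.2 CPM in KO and 1.22 CPM in WT, on 35 KO UMIs and 1 WT UMI, and the summed level of the 9 pericyte markers in these cells was 481 CPM in KO and 64.8 CPM in WT, with all 9 detected in both; its part in the difference was not tested. Over all barcodes Cox4i2 had 574 UMIs in KO and 137 in WT. Fewer cells of a type and less RNA per cell cannot be told apart in that sum.

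Ndufa4l2, a form of Ndufa4 that is induced by low oxygen, also had its highest level in pericyte- and smooth muscle-gated cells, with 230 CPM in KO and 200 CPM in WT. In fibroblast-gated cells it was higher in KO, at 29.2 CPM against 15.8 CPM in WT (477 KO and 259 WT UMIs, ratio 1.85, 1.59 to 2.16), the only nuclear-encoded member higher there. The summed pericyte markers were 21.8 CPM in KO and 19.5 CPM in WT fibroblast-gated cells, far under the 7684 CPM in KO and 9244 CPM in WT of the pericyte gate. In keratinocyte-gated cells Ndufa4l2 was lower in KO, at 1.27 CPM against 4.60 CPM in WT (97 KO and 495 WT UMIs, ratio 0.276, 0.220 to 0.344), and the KO value was close to the 1.17 CPM in KO and 0.926 CPM in WT of macrophage-gated cells.

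AA467197, a relative of Ndufa4 outside the rule, was followed because of that kinship. It had 122 CPM in KO and 40.4 CPM in WT vascular endothelial-gated cells (184 KO and 33 WT UMIs), 11.0 CPM in KO and 4.76 CPM in WT macrophage-gated cells (ratio 2.30, 1.49 to 3.60), and 3.44 CPM in KO and 4.01 CPM in WT keratinocyte-gated cells. The muscle forms Cox6a2, Cox7a1 and Cox8b were nearly undetected. Cox7a1 had 53 KO and 38 WT UMIs in keratinocyte-gated cells, 0.694 CPM in KO and 0.353 CPM in WT (ratio 1.96, 1.27 to 3.06), and Cox6a2 had 53 UMIs over all KO barcodes and 9 over all WT barcodes. Summed skeletal muscle markers were also low, with 6.32 CPM in KO and 5.98 CPM in WT keratinocyte-gated cells. Cox6b2, known as the testis form, had 5.06 CPM in KO and 5.44 CPM in WT keratinocyte-gated cells. The ubiquitous partners stood far higher in the same cells, Cox6a1 at 246 CPM in KO and 294 CPM in WT, Cox6b1 at 475 CPM in KO and 681 CPM in WT, Cox7a2 at 476 CPM in KO and 564 CPM in WT, and Cox8a at 857 CPM in KO and 1004 CPM in WT.

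**Figure D5:**
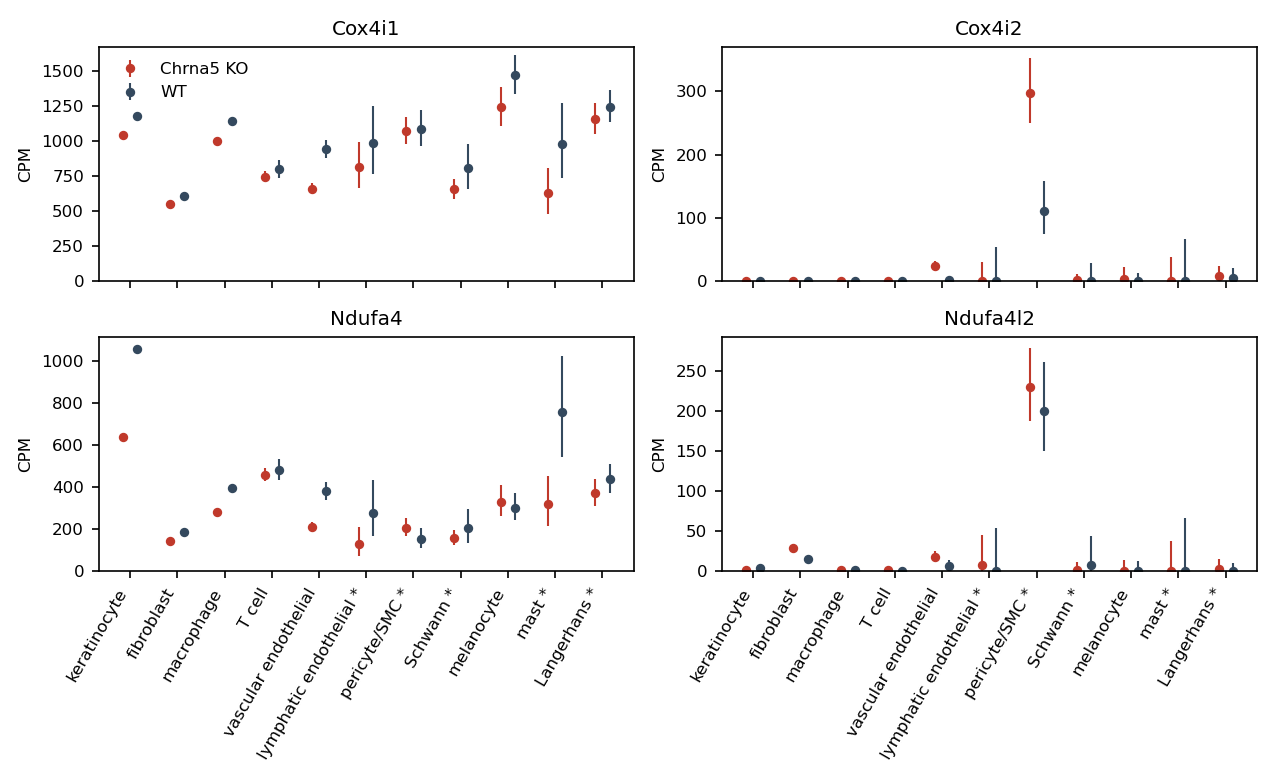
CPM of 2 isoform pairs, Cox4i1 with Cox4i2 (top) and Ndufa4 with Ndufa4l2 (bottom), in 11 gated cell types; red points are Chrna5 KO, dark points WT, bars are exact 95% Poisson intervals of counting error, and a star marks types with fewer than 50 cells in at least 1 library. Cox4i2 and Ndufa4l2 are highest in pericyte- and smooth muscle-gated cells in both libraries.

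Other mitochondrial gene lists were set beside the chain. The 78 genes of mitochondrial ribosomal proteins (symbols starting with Mrpl or Mrps), which translate the 13 mitochondrial messages, had median log2 ratios of -0.28 in keratinocyte-gated, -0.10 in fibroblast-gated and -0.37 in macrophage-gated cells, with 6 of 78, 2 of 77 and 15 of 77 measured members lower and 0, 0 and 1 higher. The shares called lower in keratinocyte- and fibroblast-gated cells were below those of all genes (12.1% and 8.72%), whereas 11.6% of all genes were lower in macrophage-gated cells. Mrpl28 had 37.2 CPM in KO and 63.9 CPM in WT keratinocyte-gated cells, and the exception Mrps6 had 74.9 CPM in KO and 53.2 CPM in WT. Cytosolic ribosomal protein genes had medians of -0.11, -0.26 and -0.19 in the same order of types.

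The 27 genes that copy, transcribe and process mitochondrial DNA had median log2 ratios of -0.03 in keratinocyte-gated, 0.15 in fibroblast-gated and 0.36 in macrophage-gated cells, and 3 of 27, 4 of 26 and 8 of 25 measured members were higher and 2, 0 and 2 lower. In keratinocyte- and fibroblast-gated cells the share called higher did not exceed that of all genes (15% and 16%), whereas 14% of all genes were higher in macrophage-gated cells. Twnk, the mitochondrial DNA helicase, was higher in all 3 types, with 15.0 CPM in KO and 7.08 CPM in WT keratinocyte-gated, 12.3 CPM in KO and 5.79 CPM in WT fibroblast-gated, and 8.80 CPM in KO and 5.03 CPM in WT macrophage-gated cells. Polg2, an accessory subunit of the mitochondrial DNA polymerase, had 11.0 CPM in KO and 3.04 CPM in WT macrophage-gated cells, on 56 KO and 23 WT UMIs. Tfam, which packages mitochondrial DNA and starts its transcription, had 33.2 CPM in KO and 27.8 CPM in WT keratinocyte-gated cells (ratio 1.20, 1.13 to 1.26). Slirp, which stabilises mitochondrial messages, was lower in keratinocyte-gated cells, at 53.5 CPM in KO and 87.6 CPM in WT.

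Electron carriers and assembly factors outside the rule (44 genes) had medians near equality, at -0.13 in keratinocyte-gated, 0.08 in fibroblast-gated and -0.08 in macrophage-gated cells. Cyc1, the haem-bearing subunit of complex III that the rule leaves out, was lower in keratinocyte-gated cells, at 90.2 CPM in KO and 138 CPM in WT, whereas Cycs, the mobile carrier cytochrome c, had 293 CPM in KO and 303 CPM in WT. Genes of the tricarboxylic acid cycle and pyruvate dehydrogenase had medians of -0.25, -0.08 and -0.13 in the same types. Suclg2, which encodes a subunit of a succinyl-CoA ligase, had 17.3 CPM in KO and 30.1 CPM in WT keratinocyte-gated cells, and Pdhb, of pyruvate dehydrogenase, had 93.9 CPM in KO and 71.9 CPM in WT.

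Regulators of mitochondrial biogenesis and oxygen response (15 genes) had medians of 0.18, 0.39 and 0.13 in the same types. Nrf1 itself, whose motif is shown above, had 18.1 CPM in KO and 18.0 CPM in WT keratinocyte-gated cells. Ppargc1a, a coactivator that drives mitochondrial biogenesis, was higher in KO keratinocyte-gated cells, with 2.00 CPM against 0.818 CPM in WT (153 KO and 88 WT UMIs), and lower in KO fibroblast-gated cells, with 3.49 CPM against 6.16 CPM in WT (57 KO and 101 WT UMIs). Hif1a, the oxygen-sensitive factor, had 180 CPM in KO and 238 CPM in WT keratinocyte-gated cells and 201 CPM in KO and 300 CPM in WT fibroblast-gated cells.

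The smaller gates rest on few cells, and their values are given as a description. In vascular endothelial-gated cells 42 of 83 nuclear-encoded members were lower and 3 higher in KO, against 21% of all genes lower and 17.1% higher, with a median log2 ratio of -0.60. Sdhc, a membrane anchor of complex II, had the ratio 0.401 and Ndufa8 of complex I the ratio 0.345 there. Melanocyte-gated cells had 19 of 69 members lower and 2 higher, against 10.9% and 18.5% of all genes, with a median of -0.34. T cell-gated cells had 3 of 84 lower and 1 higher, against 8.01% and 19.9% of all genes, with a median of -0.07. Of the 13 mitochondrial-encoded members 4 were higher in KO T cell-gated cells, namely mt-Co3, mt-Nd4, mt-Cytb and mt-Nd6, the last on 44 KO and 8 WT UMIs.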

How the data were processed

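What the authors deposited, per the file headers, are raw counts of UMIs for each gene in each barcode, not normalized. The submitters' processing notes name Cell Ranger 3.0.2, Seurat 3.0 and the build mm10, and the matrix header gives software version 3.1.0. No barcode in the files had fewer than 500 UMIs. The rule by which barcodes were chosen is not stated there.

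A cell entered a gate where its markers reached a set number per 10000 UMIs (50 for keratinocytes, 40 for fibroblasts, 30 for macrophages) and a set number of markers was present (6, 4 and 4). Cells meeting more than 1 gate (358 KO, 593 WT) entered none, and no doublet caller was run, so doublets may remain. No cap on the mitochondrial share was set, because it would cut the measured quantity. UMIs were summed per library and type. Ratios have exact conditional and levels exact Poisson 95% intervals (Python 3.11.15, numpy 2.4.6, scipy 1.17.1, pandas 2.3.3). A gene at 0 was set against 3 counts. Types with at least 200 cells in each library entered the main comparisons, and those with at least 50 were described on the same measures.

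The members and lists were chosen with earlier results of these data known. Named are, for each complex and type, the nuclear-encoded member of highest CPM. Also named are the nuclear-encoded members of highest and lowest ratio among those with at least 50 UMIs. All 13 mitochondrial-encoded genes, the isoform pairs and the extremes of other lists are named too. Further members named were chosen after their values were seen. On simulated counts over 15644 genes for keratinocytes, intervals held the true ratio of 95.8% of unchanged genes, and 97% of doubled, 93% of halved and 3.87% of unchanged genes were called. The same shares were 98%, 92% and 4.94% over 12708 genes for fibroblasts and 93%, 90% and 6.66% over 10498 genes for macrophages. The simulation held counting error only, on which the intervals also rest, so their coverage followed from its design. It held no variation between cells, mice or libraries. Its shares of unchanged genes called are therefore not false-call rates for these libraries. In keratinocyte-gated cells 15% of all measured genes were called higher and 12.1% lower in KO. Alternatives tried were caps, stricter gates, depth limits, thinning, other scalings, minimums and folds. Promoter windows are RefSeq's.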

Additional observations from a re-analysis of the deposited data

Results flagged for a closer look

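Ndufa4l2 went opposite ways in 2 gated cell types. KO over WT it was 1.851 in fibroblast-gated cells (29.2 CPM in KO and 15.8 CPM in WT) and 0.276 in keratinocyte-gated cells (1.27 CPM in KO and 4.60 CPM in WT). The difference between the types was not tested, since each genotype has 1 library.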

How the results depend on the processing

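No paired analysis was possible because each genotype has 1 library. The quotient of nuclear over mitochondrial UMIs was lower in KO, and the median of nuclear-encoded members below 0, in all 3 compared types under every alternative run; no value reversed. The log2 ratio of quotients in keratinocyte-gated cells (-0.77 as reported) was -0.79 with mitochondrial share capped at 10%, -0.81 at 5%, -0.80 with gate limits doubled, -0.66 with each cell thinned to 1000 UMIs, -0.80 in cells of at least 5000 UMIs, and -0.64 and -0.79 in Krt1- and Krt10-high and -low cells. In fibroblast-gated cells (-0.47) it was -0.45 capped at 5%, -0.51 thinned and -0.43 in cells of at least 5000 UMIs. In macrophage-gated cells (-0.47) it was -0.54 and -0.58 capped at 10% and 5%, -0.50 with limits doubled, -0.39 thinned and -0.49 in cells of at least 5000 UMIs. The keratinocyte median of nuclear-encoded members (-0.43) was -0.50 capped at 5%, -0.50 with limits doubled, -0.33 thinned, -0.48 with median-ratio size factors, and -0.070 and -0.50 in Krt1- and Krt10-high and -low cells.

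Counts of members past 1.5-fold moved more. The share of all genes past the limit is given above only for the main setting and for 5 to 4. A count under another setting therefore cannot be read as particular to the members. Lower in keratinocyte-gated cells were 31 capped at 5%, 32 with limits doubled, 12 thinned, 2 and 33 in the Krt1- and Krt10-high and -low cells, and 66 at a limit of 5 to 4. In fibroblast-gated cells 11 were lower with median-ratio size factors, 8 in cells of at least 5000 UMIs, 9 when scaled outside mitochondrial-encoded and ribosomal protein genes and 32 at 5 to 4. In macrophage-gated cells 34 were lower thinned, 34 with size factors, 33 with that scaling and 66 at 5 to 4. Nuclear-encoded members higher in keratinocyte-gated cells numbered 1 thinned, 5 with no minimum, 1 at 100 UMIs and 0 among structural subunits; in fibroblast-gated cells 3 with no minimum and 0 among structural subunits; and in macrophage-gated cells 1 at 5 to 4 and 1 with no minimum. Of the mitochondrial-encoded members 1 was higher in keratinocyte-gated cells when thinned, with size factors or in the Krt1- and Krt10-low cells, and 1 in fibroblast- and macrophage-gated cells when thinned or at 5 to 4; 1 was lower in macrophage-gated cells when thinned, with size factors or at 5 to 4. The limit of 5000 UMIs, the keratin split and the scaling outside ribosomal protein genes were chosen after seeing the data. The cause of these shifts was not tested. Genes under 20 UMIs were too shallow to measure.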
